A study of Mus musculus with 32 samples.

Results

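The tumour necrosis factor (TNF) superfamily was examined in whole kidney of mice that lack a basement membrane collagen. Its genes here were 50 of the 22180 named genes on the array: 13 ligands, 23 receptors, 6 TRAF adaptors and 8 TNFAIP genes. They were taken by symbol, as Tnf, Lta, Ltb, Ltbr, Fas, Fasl, Cd40 and Cd27 and the numbered members of the Tnfsf, Tnfrsf, Tnfaip and Traf series, with 1 receptor not analysed here. Each of the 50 had 1 array feature that named it alone. Traf3, Tnfsf12 and Tnfsf13 had no such feature of their own and were not used here. Kidneys came from male mice of strain 129. Knockout (KO) mice were Col4a3-/-, without the collagen IV alpha 3 chain of the glomerular basement membrane, and wild-type (WT) mice were their Col4a3+/+ littermates. Mice were 4 or 7 weeks old, with 8 mice in each of the 4 groups and 1 Affymetrix Mouse Gene 2.0 ST array per mouse. The sources used here do not give the deleted part of Col4a3. Every kidney was a mixture of all its cell types. The comparisons ask how the kidneys of KO mice differed from those of their littermates at each age, and how each genotype changed between the ages.

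Ligands of this superfamily are mostly membrane proteins of immune cells that act as trimers and can be cut from the cell surface. Their receptors either recruit TRAF adaptors, which pass the signal to NF-kB and MAP kinases, or carry a death domain that can lead to apoptosis or necroptosis. NF-kB activity in turn raises transcription of inhibitors such as Tnfaip3 (A20), which edits ubiquitin chains and closes the loop. In kidney disease TNF is known as a product of infiltrating macrophages and of injured tubule cells, and the soluble forms of both TNF receptors are known blood markers of kidney function decline.

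All values are log2 signals after RMA, so a difference of 1 is a doubling, and levels of different genes cannot be set against each other. Col4a3 checked the labels: it lay between 7.60 and 8.42 in KO and 8.46 and 9.33 in WT mice at 4 weeks, and between 6.97 and 7.87 against 8.74 and 9.06 at 7 weeks, with no overlap at either age. Arrays of a group correlated at 0.965 to 0.995, and no pair of arrays was identical. The number of arrays limits the precision, and whether a signal stood above background was not analysed here. In each group 1 array correlated least with the others: KO mouse 4 and WT mouse 8 at 4 weeks, and KO mouse 3 and WT mouse 6 at 7 weeks. As markers of the labelled tissue, the proximal tubule genes had mean signals of 11.17 to 12.26 and the podocyte genes of 6.84 to 8.01 over all mice. No other tissue was set beside them, so these values describe the arrays and do not test the tissue label.

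At 7 weeks 23 of the 50 genes were higher in KO than in WT kidneys and 3 were lower, at an adjusted p under 0.05 in the limma test. Among all 22180 genes 15.6% were higher and 16.7% lower, 32.3% together. The largest increases were those of the ubiquitin editor Tnfaip3 (3.14-fold), the B cell survival factor Tnfsf13b (BAFF, 3.10-fold), the TWEAK receptor Tnfrsf12a (3.01-fold) and Tnf itself (2.75-fold). Where genotypes are compared, rose and fell mean higher and lower in KO than in WT mice of the same age. The genes that fell were Tnfaip8, Tnfrsf21 and Traf4. By role, 6 of 13 ligands rose and 0 fell, 10 of 23 receptors rose and 1 fell, 3 of 6 adaptors rose and 1 fell, and 4 of 8 TNFAIP genes rose and 1 fell. The median difference of the 50 was 0.25, against -0.06 over all genes, and 11 of the 50 were at least doubled, beside 716 of all 22180 genes. In 14 of the 50, all 8 KO mice lay above all 8 WT mice, which held for 7.62% of all genes, and in 0 of the 50 did they lie below, which held for 5.42%. With each array centred on its median, which moved differences at this age by 0.11, 19 rose and 6 fell, beside 11.6% and 37.5% of all genes. Ltb, Tnfrsf13b, Tnfrsf18 and Tnfsf18 no longer rose, and Lta, Tnfrsf25 and Tnfrsf26 then fell. Over all genes the share of higher genes among those called went from 48.4% to 23.6%.

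**Figure D1:**
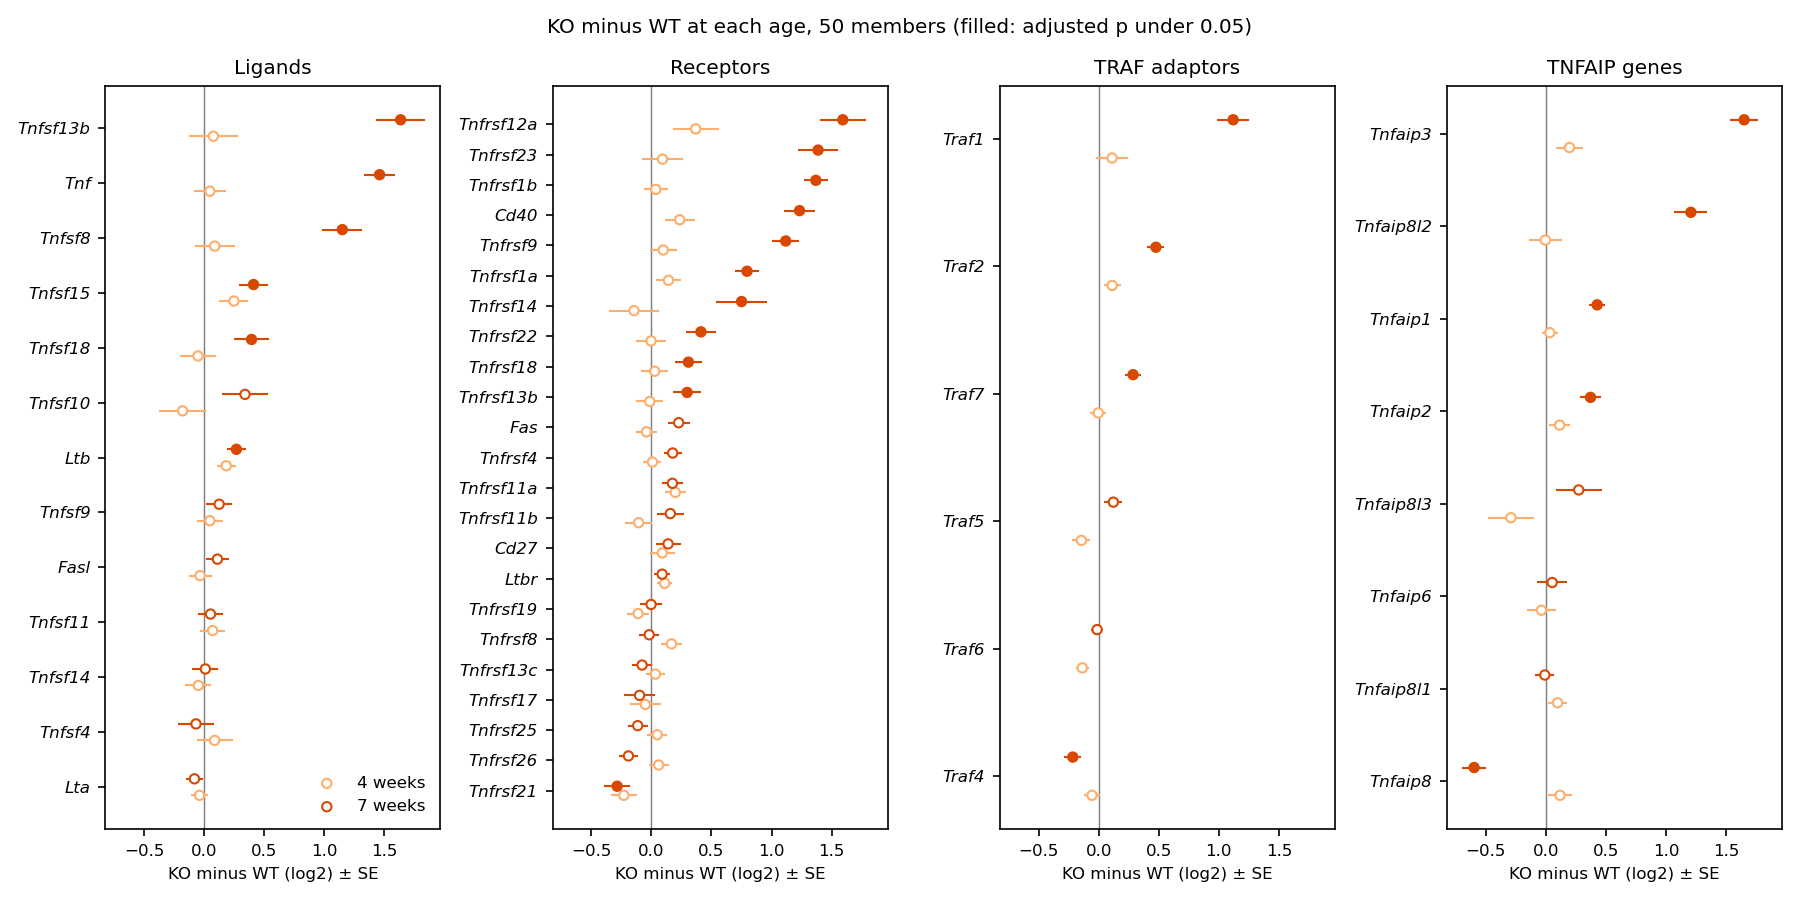
KO minus WT difference (log2 RMA signal, horizontal axis) of each of the 50 genes at 4 and 7 weeks, ordered by role. Points are differences between means of 8 mice, bars are standard errors, and filled points have an adjusted p under 0.05. No point at 4 weeks is filled, and 26 at 7 weeks are.

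Markers of several other cell types moved with the same contrast. All 10 macrophage markers were higher in KO mice at 7 weeks (median difference 2.36), and their mean ran from 6.55 to 6.81 in WT and from 8.22 to 9.59 in KO mice. Likewise 7 of 8 T cell markers (0.92), 3 of 5 dendritic cell markers (0.87) and all 6 fibroblast and pericyte markers (1.48) were higher. Of the B and plasma cell markers 2 of 6 were higher, and of the neutrophil markers 1 of 7. All 6 proximal tubule markers were lower (-0.47), as were 5 of 7 of the distal tubule and collecting duct. The remaining lists were mixed or flat. Loop of Henle markers were higher in 1 of 5 and lower in 1, and NK cell markers higher in 2 of 6 and lower in 1. Endothelial markers were lower in 2 of 6 and higher in 0, and 0 of 5 podocyte markers passed. Beside these counts, 15.6% of all genes were higher and 16.7% lower. The part of these cell types in the differences below was not tested, and in whole tissue more cells of a type and more RNA per cell cannot be told apart.

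Among the ligands, Tnf and Tnfsf13b rose most. Tnf, the cytokine that names the family, had its lowest, median and highest value at 6.40, 6.92 and 7.33 in KO mice and 5.20, 5.42 and 5.79 in WT mice of 7 weeks. It was 1.46 ± 0.13 higher (SE, n = 8 per group, adjusted p = 1.47e-10). At 4 weeks the ranges were 5.37 to 5.95 in KO and 5.40 to 6.39 in WT mice. The 7-week KO mice therefore lay above every other mouse, although WT mouse 8 of 4 weeks, at 6.39, came next to the lowest of them. Tnfsf13b ran over 7.08, 7.94 and 8.33 in KO and 5.97, 6.09 and 6.38 in WT mice of 7 weeks, a difference of 1.63 ± 0.20 (adjusted p = 9.68e-08). Within the 7-week KO group, mice 1, 4, 6 and 8 had Tnfsf13b signals of 8.20 to 8.33 and the other 4 had 7.08 to 7.69.

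Tnfsf8 (CD30 ligand), which is known from activated T cells and macrophages, ran over 5.17, 5.58 and 6.96 in KO and 4.34, 4.56 and 4.79 in WT mice at 7 weeks (1.15 ± 0.17, adjusted p = 1.22e-06). The highest value belonged to KO mouse 6, and the next mouse had 5.93. The other ligands that rose differed less between the genotypes, and their groups overlapped. Tnfsf15 (TL1A, an endothelial and myeloid cytokine) was higher by 0.41 ± 0.12, Tnfsf18 (GITR ligand) by 0.39 ± 0.15 and Ltb (lymphotoxin beta) by 0.27 ± 0.08. Tnfsf18 was the least secure of them, with an adjusted p of 0.0380 that became 0.0970 without KO mouse 3 and 0.0639 without WT mouse 6. Of the 7 ligands that did not pass, Tnfsf10 (TRAIL) had the largest difference, 0.34 ± 0.19 (adjusted p = 0.187). Its 4-week WT mouse 8 stood at 10.14 and entered the shared variance: without that mouse the 7-week adjusted p was 0.0101. Fasl, Lta, Tnfsf4, Tnfsf9, Tnfsf11 and Tnfsf14 had differences between -0.08 and 0.12.

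Both TNF receptors were higher in KO mice at 7 weeks. Tnfrsf1b (TNFR2), the TRAF-binding receptor found chiefly on immune and endothelial cells, ran over 7.26, 8.00 and 8.15 in KO and 6.31, 6.53 and 6.65 in WT mice, and was 1.37 ± 0.10 higher (adjusted p = 2.25e-12). Tnfrsf1a (TNFR1), the widely expressed receptor with a death domain, ran over 8.65, 8.94 and 9.29 in KO and 7.84, 8.13 and 8.43 in WT mice (0.80 ± 0.10, adjusted p = 1.79e-07). For each of them the lowest KO mouse lay above the highest WT mouse. At 4 weeks Tnfrsf1b spanned 6.29 to 6.62 in KO and 6.20 to 6.92 in WT mice, and Tnfrsf1a 7.70 to 8.50 and 7.63 to 8.05, so that the genotypes overlapped.

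**Figure D2:**
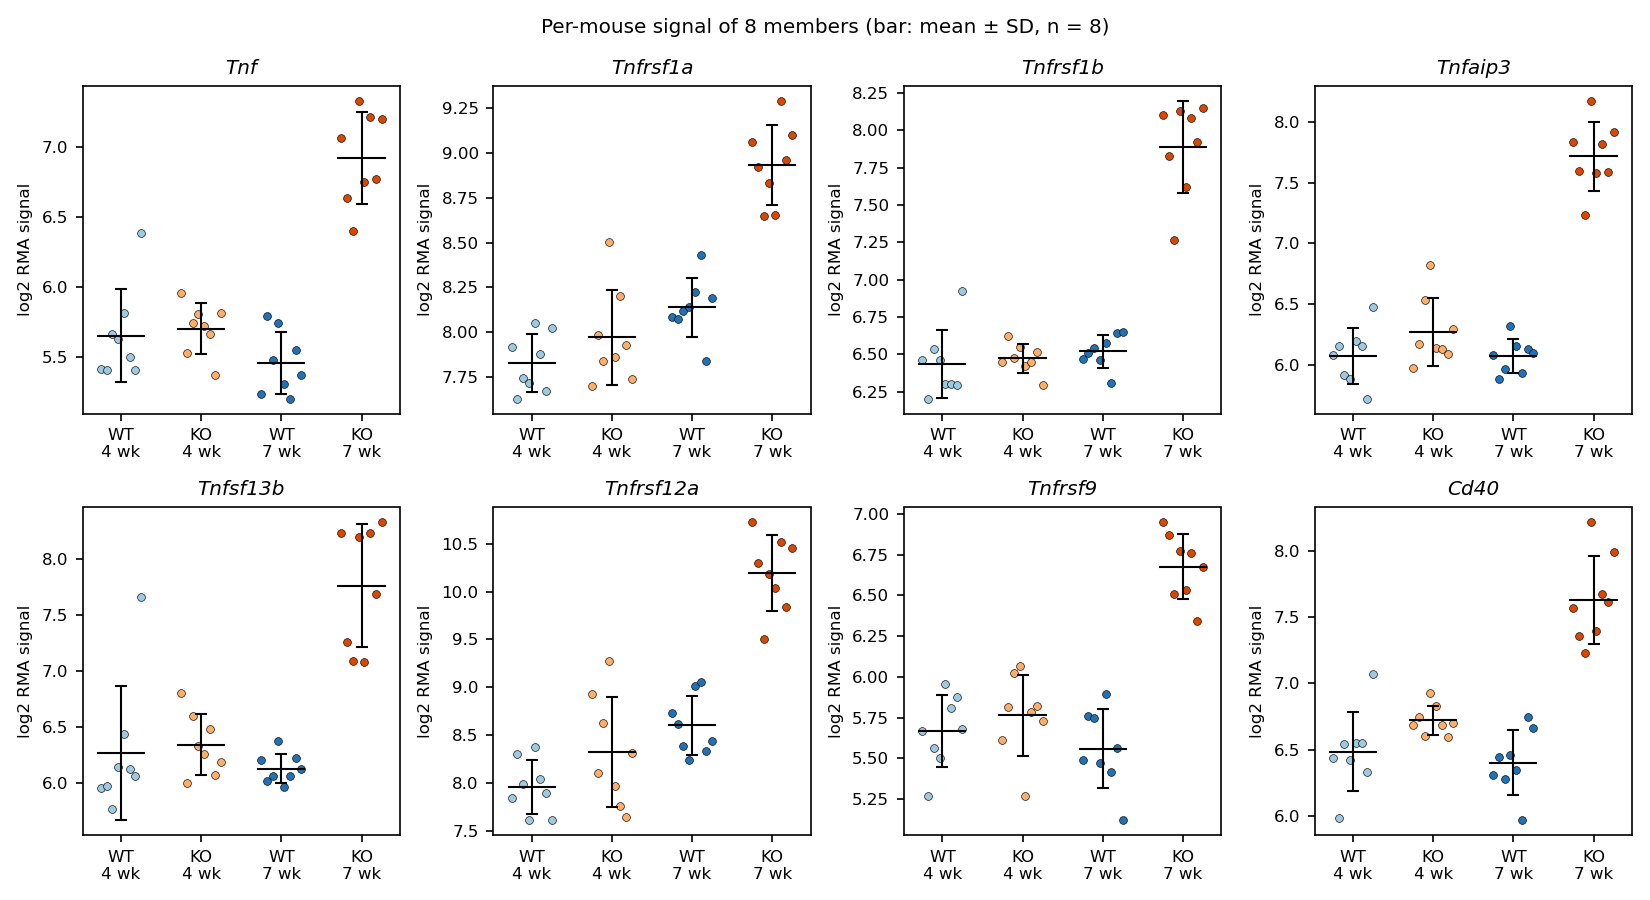
Log2 RMA signal (vertical axis) of 8 genes in each mouse of the 4 groups, with the mean ± SD over 8 mice. In every panel the 8 KO mice of 7 weeks lie above the 8 WT mice of 7 weeks, while the genotypes overlap at 4 weeks.

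Tnfrsf12a (Fn14) is an inducible receptor of epithelial and mesenchymal cells whose ligand is Tnfsf12. It ran over 9.50, 10.24 and 10.72 in KO and 8.24, 8.52 and 9.05 in WT mice of 7 weeks, 1.59 ± 0.19 apart (adjusted p = 4.79e-08). At 4 weeks the KO mice spread from 7.65 to 9.27 and the WT mice from 7.61 to 8.38. Cd40, the receptor through which T cells activate macrophages and B cells, ran over 7.23, 7.60 and 8.22 in KO and 5.97, 6.39 and 6.75 in WT mice of 7 weeks (1.23 ± 0.13, adjusted p = 1.96e-09). Tnfrsf9 (4-1BB), a costimulatory receptor of activated T cells, ran over 6.34, 6.72 and 6.95 against 5.12, 5.53 and 5.90 (1.12 ± 0.11, adjusted p = 1.3e-09). Neither of these receptors had overlapping genotypes at 7 weeks, and both overlapped at 4 weeks.

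Tnfrsf23, a mouse decoy receptor for TRAIL, ran over 7.17, 7.89 and 8.30 in KO and 6.10, 6.46 and 6.93 in WT mice of 7 weeks (1.39 ± 0.17, adjusted p = 5.08e-08). Tnfrsf14 (HVEM) ran over 6.09, 6.55 and 7.01 against 5.52, 5.77 and 6.05 (0.75 ± 0.21, adjusted p = 0.00513). Its standard error was wide for groups that did not overlap, and its 4-week WT mouse 8 stood at 7.93, the next mouse at 5.93. Smaller increases with overlapping groups were those of Tnfrsf22 (0.41 ± 0.13), the costimulatory receptor Tnfrsf18 (GITR, 0.31 ± 0.11) and the BAFF receptor Tnfrsf13b (TACI, 0.30 ± 0.11). The latter 2 had adjusted p values of 0.0312 and 0.0428, and of 0.0637 and 0.0731 without WT mouse 6. The death receptor Tnfrsf21 (DR6) was the receptor that fell, by 0.29 ± 0.11 (adjusted p = 0.0436, and 0.0855 without WT mouse 6). Its groups overlapped, with 11.25 to 11.93 in KO and 11.76 to 12.12 in WT mice.

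The other 12 receptors did not pass. Fas, the death receptor, came nearest, with 6.94, 7.04 and 7.20 in KO and 6.40, 6.93 and 7.08 in WT mice (0.23 ± 0.09, adjusted p = 0.0545). It passed without WT mouse 8 of the 4-week group (adjusted p = 0.0407) and also without KO mouse 3. Tnfrsf26 (-0.19 ± 0.08, adjusted p = 0.0754) and Tnfrsf4 (OX40, 0.18 ± 0.08, adjusted p = 0.0694) followed. Tnfrsf11a (RANK) and its soluble competitor Tnfrsf11b (osteoprotegerin) had differences of 0.17 ± 0.09 and 0.16 ± 0.11, the lymphotoxin beta receptor Ltbr 0.09 ± 0.06, and Cd27 0.14 ± 0.10. Differences of Tnfrsf8, Tnfrsf13c, Tnfrsf17, Tnfrsf19 and Tnfrsf25 were at -0.11 (Tnfrsf25) or closer to 0.

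Of the TRAF adaptors, Traf1 and Traf2, which bind each other and recruit the cIAP ubiquitin ligases, rose with no overlap between the genotypes. Traf1 ran over 6.40, 7.08 and 7.41 in KO and 5.59, 5.90 and 6.06 in WT mice of 7 weeks (1.12 ± 0.13, adjusted p = 2.96e-08). Traf2 ran over 7.85, 7.98 and 8.13 against 7.34, 7.50 and 7.77 (0.48 ± 0.07, adjusted p = 2.22e-06). Traf7 rose by 0.29 ± 0.07 and Traf4, an adaptor of epithelial cells, fell by 0.21 ± 0.07 (adjusted p = 0.0169), each with overlapping groups. Traf5 (0.12 ± 0.07) and Traf6 (-0.01 ± 0.05), the adaptor shared with Toll-like and interleukin-1 receptors, did not pass. The TRAFs thus moved in both directions.

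Tnfaip3 had the largest difference of all 50. It ran over 7.23, 7.71 and 8.18 in KO and 5.88, 6.09 and 6.32 in WT mice of 7 weeks (1.65 ± 0.12, adjusted p = 8.79e-13), and over 5.97, 6.15 and 6.82 against 5.72, 6.12 and 6.47 at 4 weeks. Tnfaip8l2 (TIPE2), a lipid-binding regulator of immune cells, ran over 6.29, 6.83 and 7.18 against 5.10, 5.55 and 5.82 at 7 weeks (1.21 ± 0.14, adjusted p = 1.92e-08). Neither gene's genotypes overlapped at that age. Its relative Tnfaip8 went the other way, with 5.96, 6.33 and 6.90 in KO and 6.78, 6.94 and 7.14 in WT mice. It fell by 0.60 ± 0.10 (adjusted p = 1.18e-05), and 7 of 8 KO mice lay below every WT mouse, the exception being KO mouse 3 at 6.90. The other relatives Tnfaip8l1 (-0.01 ± 0.08) and Tnfaip8l3 (0.27 ± 0.19) did not pass. Tnfaip1, an adaptor of cullin-based ubiquitin ligases, ran over 9.84, 10.06 and 10.19 against 9.47, 9.59 and 9.84 (0.43 ± 0.07, adjusted p = 4.09e-06), and Tnfaip2 rose by 0.37 ± 0.08. Tnfaip6 (TSG-6), a secreted matrix protein, had a difference of 0.05 ± 0.12. Tnfaip8 and its 3 relatives form a protein family, and the other TNFAIP genes are unrelated to it and share only a name.

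Promoter windows of 43 of the 50 genes were read from RefSeq (build GRCm38.p6), from 250 bases before the gene start to 50 bases from it on, and searched on both strands for 3 motifs. The NF-kB consensus stood in 7 of the 43, against 9.55% of 27025 genes in the same table: in Ltb, Tnfaip2, Tnfaip3 and Tnfrsf9, which rose at 7 weeks, and in Tnfaip8l1, Tnfrsf8 and Tnfrsf25, which did not. TGANTCA, the letters of an AP-1 site, stood in 7 of 43 (8.97% of all genes): in Tnfaip3, Tnfrsf9 and Tnfsf13b, which rose, and in Fas, Tnfaip6, Tnfrsf8 and Tnfsf14, which did not pass. GAAA, any 2 bases and GAAA, the letters of an interferon-type element, stood in Tnfrsf1b, Tnfrsf14 and Tnfsf13b, which rose, and in Tnfrsf17, which did not pass (3.99% of all genes). A match describes the letters and is not a binding site. The windows of 4 genes are shown, 3 that hold the NF-kB consensus and rose by very different amounts, and that of Tnf, which rose and has no match here. Capitals mark the matches to the NF-kB consensus alone. They lie 125 to 116 and 12 to 3 bases before the start in Tnfaip3 (chr10:19015361-19015660, minus strand), 87 to 78 bases before it in Ltb (chr17:35194257-35194556, plus strand) and 43 to 33 bases before it in Tnfrsf9 (chr4:150927749-150928048, plus strand), where 2 matches overlap. The Tnf window is chr17:35201958-35202257 on the minus strand. Tnfaip3 and Tnfrsf9 each have another window in the table, without a match.
Tnfaip3: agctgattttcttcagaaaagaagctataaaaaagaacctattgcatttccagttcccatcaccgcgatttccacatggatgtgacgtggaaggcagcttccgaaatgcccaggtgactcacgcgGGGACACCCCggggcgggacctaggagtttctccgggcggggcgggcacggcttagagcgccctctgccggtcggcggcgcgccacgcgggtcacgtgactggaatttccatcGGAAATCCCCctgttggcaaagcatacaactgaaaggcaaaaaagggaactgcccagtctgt
Tnfrsf9: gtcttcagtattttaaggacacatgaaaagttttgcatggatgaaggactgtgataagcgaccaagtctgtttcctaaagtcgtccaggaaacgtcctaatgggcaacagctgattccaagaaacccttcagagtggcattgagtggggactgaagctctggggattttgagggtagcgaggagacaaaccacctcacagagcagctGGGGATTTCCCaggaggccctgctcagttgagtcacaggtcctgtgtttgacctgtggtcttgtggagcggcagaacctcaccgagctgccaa
Ltb: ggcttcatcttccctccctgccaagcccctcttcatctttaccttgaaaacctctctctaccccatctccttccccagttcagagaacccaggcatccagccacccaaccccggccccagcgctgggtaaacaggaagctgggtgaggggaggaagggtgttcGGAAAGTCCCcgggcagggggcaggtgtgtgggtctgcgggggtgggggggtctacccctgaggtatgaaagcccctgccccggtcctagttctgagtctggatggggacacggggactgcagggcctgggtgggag
Tnf: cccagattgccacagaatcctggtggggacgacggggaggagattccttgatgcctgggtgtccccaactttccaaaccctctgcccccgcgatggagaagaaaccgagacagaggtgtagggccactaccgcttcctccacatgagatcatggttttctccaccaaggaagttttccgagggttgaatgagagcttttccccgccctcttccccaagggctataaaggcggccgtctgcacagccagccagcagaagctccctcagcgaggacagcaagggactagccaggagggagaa

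Ligands and their receptors did not always pass together. Tnf and both its receptors rose. Tnfsf18 and Tnfrsf18 also both rose, by 0.39 and 0.31, but neither passed with centred arrays or without WT mouse 6 of 7 weeks. Tnfsf8 rose by 1.15 while its receptor Tnfrsf8 (CD30) had a difference of -0.02 ± 0.08. In the opposite way Tnfrsf9 rose by 1.12 while its ligand Tnfsf9 had 0.12 ± 0.11 (adjusted p = 0.403), and Cd40 rose by 1.23 while Cd40lg, its T cell ligand, had 0.17 ± 0.11 (adjusted p = 0.266). Of the 3 receptors of Tnfsf13b, Tnfrsf13b rose by 0.30, a call also lost with centred arrays and without WT mouse 6. Tnfrsf13c (BAFF receptor) and Tnfrsf17 (BCMA), known chiefly from B and plasma cells, had -0.08 ± 0.08 and -0.10 ± 0.13. Tnfsf15 rose while Tnfrsf25 (DR3) had -0.11 ± 0.08. Neither partner passed for Fasl and Fas, for Tnfsf4 and Tnfrsf4, for Tnfsf11 with Tnfrsf11a and Tnfrsf11b, or for Cd70 (-0.15 ± 0.09) and Cd27. Differences between the partners of a pair were not tested, and probe response can differ between genes. Some partners that did not pass had low signals. Medians in WT and KO mice of 7 weeks were 4.17 and 4.44 for Cd40lg, 3.55 and 3.35 for Cd70 and 5.16 and 5.18 for Tnfrsf8. Whether such signals stood above background was not analysed here, so a small difference there need not mean an unchanged transcript.

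Among the 50, 9 pairs are neighbours, taken as members with no other protein-coding gene between them in the RefSeq table. The pairs were looked at after the values were seen, so they are described without a test. Ltb, Tnf and Lta lie side by side in the major histocompatibility region. Lta, the soluble lymphotoxin, ran over 4.88, 5.10 and 5.25 in KO and 4.79, 5.17 and 5.36 in WT mice of 7 weeks. KO minus WT differences in this run were 0.27 for Ltb, 1.46 for Tnf and -0.08 for Lta. Whether the Lta signal stood above background was not analysed here.

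In the run Tnfrsf26, Tnfrsf22, Tnfrsf23 the differences were -0.19, 0.41 and 1.39. Tnfrsf22 and Tnfrsf23 are close copies, and shared hybridisation of their probes was not tested. Tnfrsf1b had 1.37 beside -0.02 for its neighbour Tnfrsf8, and Tnfsf8 had 1.15 beside 0.41 for Tnfsf15. In the run Tnfsf4, Tnfsf18, Fasl the values were -0.07, 0.39 and 0.11, and Tnfrsf4 and Tnfrsf18 had 0.18 and 0.31.

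**Figure D3:**
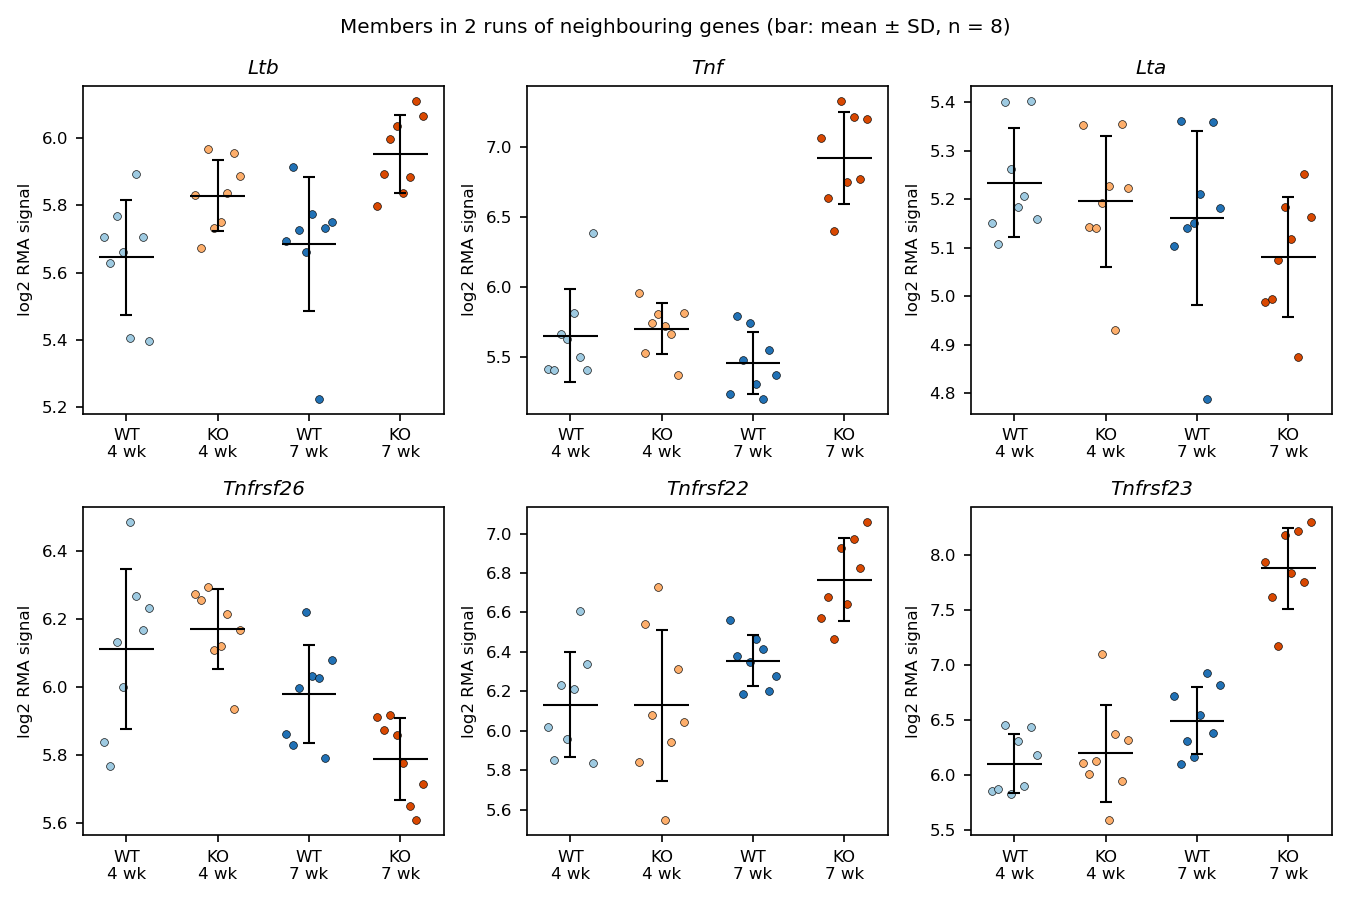
Log2 RMA signal (vertical axis, a scale of its own in each panel) of Ltb, Tnf, Lta and of Tnfrsf26, Tnfrsf22, Tnfrsf23 in each mouse, with the mean ± SD over 8 mice. Tnf and Tnfrsf23 separate the KO mice of 7 weeks from the WT mice of that age, and Lta and Tnfrsf26 do not.

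At 4 weeks none of the 50 genes passed in limma, where 9 of all genes did (0.0406%). Unadjusted p values were under 0.05 for 5 of the 50 (10%) and for 9.22% of all genes. An exact rank-sum test called 0 of the 50 and 0 of all genes. With 8 mice per group the smallest p of this test is 0.0001554. After adjustment over 22180 genes a call therefore needs many genes with p values that small. Few genes separated the genotypes fully at this age, so the lack of calls says nothing about the members. Before adjustment the rank-sum p was under 0.05 for 4 of the 50, beside 1599 of all 22180 genes. The 5 were the ligands Ltb (0.18 ± 0.08, adjusted p = 0.480) and Tnfsf15 (0.25 ± 0.12, adjusted p = 0.541), the receptors Tnfrsf11a (0.20 ± 0.09, adjusted p = 0.489) and Tnfrsf21 (-0.23 ± 0.11, adjusted p = 0.530), and the adaptor Traf6 (-0.14 ± 0.05, adjusted p = 0.432). The median difference was 0.04, and 30 of the 50 were positive, beside -0.0050 and 10719 of 22180 over all genes. The macrophage markers had a median difference of 0.36 at this age, with 0 of 10 passing.

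WT mouse 8 of 4 weeks weighed on this comparison, being the highest of its group for 15 of the 50. It stood at 7.67 for Tnfsf13b where the next mouse had 6.43, and the T cell markers reached a mean of 6.09 in that group, whose median was 5.32. Without this mouse 0 of the 50 passed, 6 had an unadjusted p under 0.05 (beside 11.2% of all genes) and 34 were positive, with a median of 0.068 beside -0.0040 over all genes. Cd40 was among the 6, with 0.32 (unadjusted p = 0.0115), as was Tnfaip3, with 0.25 (unadjusted p = 0.0356). This fit kept KO mouse 4 of 4 weeks, which had the highest Cd40 (6.93) and Tnfaip3 (6.82) of its group. Among other genes, that mouse was also the highest of its group for Tnfrsf12a (9.27), Tnfrsf1a (8.50) and Tnfrsf23 (7.10). A fit without KO mouse 4 alone was not run.

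The KO minus WT difference was itself larger at 7 than at 4 weeks for 16 of the 50 and lower for 1, beside 9.8% and 7.24% of all genes. All 16 were among the 23 that rose at 7 weeks. The largest such changes were those of Tnfsf13b (1.56 ± 0.29, adjusted p = 2.29e-04), Tnfaip3 (1.45 ± 0.16, adjusted p = 3.78e-07), Tnf (1.41 ± 0.19, adjusted p = 2.52e-06) and Tnfrsf1b (1.33 ± 0.14, adjusted p = 2.07e-07). Tnfaip8 was the 1 in the other direction, with -0.71 ± 0.14 (adjusted p = 4.28e-04). The remaining 7 that rose, Ltb, Tnfaip2, Tnfrsf13b, Tnfrsf18, Tnfrsf22, Tnfsf15 and Tnfsf18, did not pass this test. Of these, Tnfrsf22 passed without the least correlated array of each group (0.60, adjusted p = 0.0117). For Ltb the differences at the 2 ages were 0.18 and 0.27, and for Tnfsf15 they were 0.25 and 0.41. With arrays centred on their medians, which moved this contrast by 0.10, 15 were larger and 2 lower, beside 7.54% and 15.1% of all genes, and Traf7 was the 1 lost (0.19, adjusted p = 0.116). The share of higher genes among all called went from 57.5% to 33.2%.

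In WT kidneys 9 of the 50 rose from 4 to 7 weeks and 2 fell, beside 15.4% and 14.1% of all genes. Among the 6 adaptors 4 rose: Traf4 (0.43 ± 0.07, adjusted p = 1.99e-05), Traf2 (0.29 ± 0.07), Traf7 (0.29 ± 0.07) and Traf6 (0.23 ± 0.05). The largest increase was that of the receptor Tnfrsf12a (0.64 ± 0.19, adjusted p = 0.00995), and Tnfrsf21 (0.37 ± 0.11), Tnfrsf1a (0.31 ± 0.10), Tnfaip1 (0.29 ± 0.07) and Ltbr (0.17 ± 0.06) rose too. For Tnfaip1, Traf2 and Traf4 every WT mouse of 7 weeks lay above every WT mouse of 4 weeks, which held for 7.38% of all genes. The ligand Tnfsf15 (-0.36 ± 0.12, adjusted p = 0.0241) and Fas (-0.25 ± 0.09, adjusted p = 0.0382) fell. Both falls were lost without WT mouse 8 of 4 weeks (adjusted p = 0.0526 and 0.103). Without WT mouse 6 of 7 weeks Ltbr, Tnfrsf1a and Tnfsf15 no longer passed (adjusted p = 0.0728, 0.0517 and 0.0508).

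In KO kidneys 23 rose from 4 to 7 weeks and 2 fell, beside 21.4% and 21.3% of all genes. Tnfrsf12a rose most (1.87 ± 0.19, adjusted p = 2.61e-09), followed by Tnfrsf23 (1.69 ± 0.17), Tnfaip3 (1.45 ± 0.12), Tnfrsf1b (1.42 ± 0.10) and Tnfsf13b (1.42 ± 0.20). In 17 of the 50 every KO mouse of 7 weeks lay above every KO mouse of 4 weeks, beside 6.89% of all genes. The opposite held for Tnfrsf26 (-0.38 ± 0.08, adjusted p = 3.02e-04), beside 2.69%. Tnfaip8 fell as well (-0.64 ± 0.10, adjusted p = 3.42e-06). Tnfsf15, higher in KO than in WT mice at 7 weeks, did not rise with age in KO mice (-0.19 ± 0.12, adjusted p = 0.204). With centred arrays, which moved this contrast by 0.08, 22 rose and 3 fell, beside 17.6% and 32.6% of all genes. The share of higher genes among all called then went from 50.1% to 35.1%.

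Both genotypes shared 8 of these increases: Tnfaip1, Tnfrsf12a, Tnfrsf1a, Tnfrsf21, Traf2, Traf4, Traf6 and Traf7. Of them Tnfaip1, Tnfrsf12a, Tnfrsf1a, Traf2 and Traf7 were also higher in KO than in WT mice at 7 weeks. Tnfrsf21 and Traf4 rose with age in each genotype, yet were lower in KO mice at 7 weeks. The age comparisons share their 7-week and 4-week mice with the comparisons of genotypes and are not separate evidence of them.

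The KO mice of 7 weeks varied among themselves. Over the 23 genes that rose, mouse 3 was the lowest of the 8 for 12 genes and mouse 8 the highest for 9, and the mean signal of the 23 ran from 6.97 in mouse 3 to 7.51 in mouse 8. Mouse 3 had the lowest Tnf (6.40), Tnfrsf1b (7.26) and Tnfsf8 (5.17) and the highest Tnfaip8 (6.90). The typical spread of the 50 (median SD) was 0.19 in this group and 0.17 in WT mice of the same age, beside 0.17 and 0.16 over all genes.

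Other genes of the pathway were taken as 7 lists of 96 genes, of which 88 had a feature of their own. At 7 weeks 53 were higher in KO mice and 5 lower, beside the 15.6% and 16.7% of all genes above, and at 4 weeks 1 was higher and 0 lower. NF-kB subunits and inhibitors rose in 9 of 10 (median difference 1.04): Nfkbiz (1.74 ± 0.13, adjusted p = 3.98e-12), the subunit Rel (1.58 ± 0.13), the inhibitor Nfkbie (1.59 ± 0.16) and Nfkb2 (1.38 ± 0.14), but not Nfkbib (0.01). Known NF-kB response genes rose in 18 of 21 and fell in 1, the mitochondrial superoxide dismutase Sod2 (-0.38; median of the list 1.31). Examples are the adhesion molecules Vcam1 (4.29) and Icam1 (1.85 ± 0.16), the lipocalin Lcn2 (3.81) and the chemokine Cxcl2 (2.49). Sele (-0.08) and Zfp36 (-0.04) did not pass. Lcn2, a marker of tubule injury, was also the 1 gene that rose at 4 weeks (1.27 ± 0.25, adjusted p = 0.0342). It did not pass with only the groups compared or with the replicate block. Nor did it pass in the rank-sum test, where no gene passed at 4 weeks.

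Of 25 receptor-proximal adaptors, kinases and ubiquitin enzymes 9 rose and 0 fell (median 0.09), led by the cIAP ligases Birc3 (1.63 ± 0.14, adjusted p = 4.25e-11) and Birc2 (1.01 ± 0.11), the A20-binding Tnip3 (1.46 ± 0.16) and the kinase Map3k8 (0.87 ± 0.11). Ikbkb (0.22, adjusted p = 0.0518) and Tab1 (-0.20, adjusted p = 0.0504) did not pass. Of 13 death effectors 6 rose and 3 fell (median 0.11). Mlkl (1.47 ± 0.16, adjusted p = 1.21e-08) and Ripk3 (0.66), the executioner and kinase of necroptosis, rose, as did Bak1 (1.00) and Apaf1 (0.79) of the mitochondrial route, while Fadd (-0.17) and Casp9 (-0.20) did not pass. Those that fell were Bid (-0.29), Pgam5 (-0.27) and Cycs (-0.24), named with Sod2 after their values were seen. Of 5 genes for the release of TNF from the membrane 3 rose: the sheddases Adam17 (0.36 ± 0.06) and Adam10 (0.39 ± 0.06) and the iRhom Rhbdf2 (0.85 ± 0.14), with Rhbdf1 (0.20) and Timp3 (-0.13) not passing. Of 8 other genes of the superfamily 5 rose (median 0.40), among them Relt (0.53), Eda2r (0.44), Eda (0.43) and Ngfr (0.43). Of 6 other TRAF-binding genes 3 rose and 1 fell: Tifa (0.55 ± 0.10), Traf3ip3 (0.43) and Trafd1 (0.35) against Traf3ip1 (-0.47 ± 0.10), with Traf3ip2 (0.18) and Traip (-0.01) not passing.

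**Figure D4:**
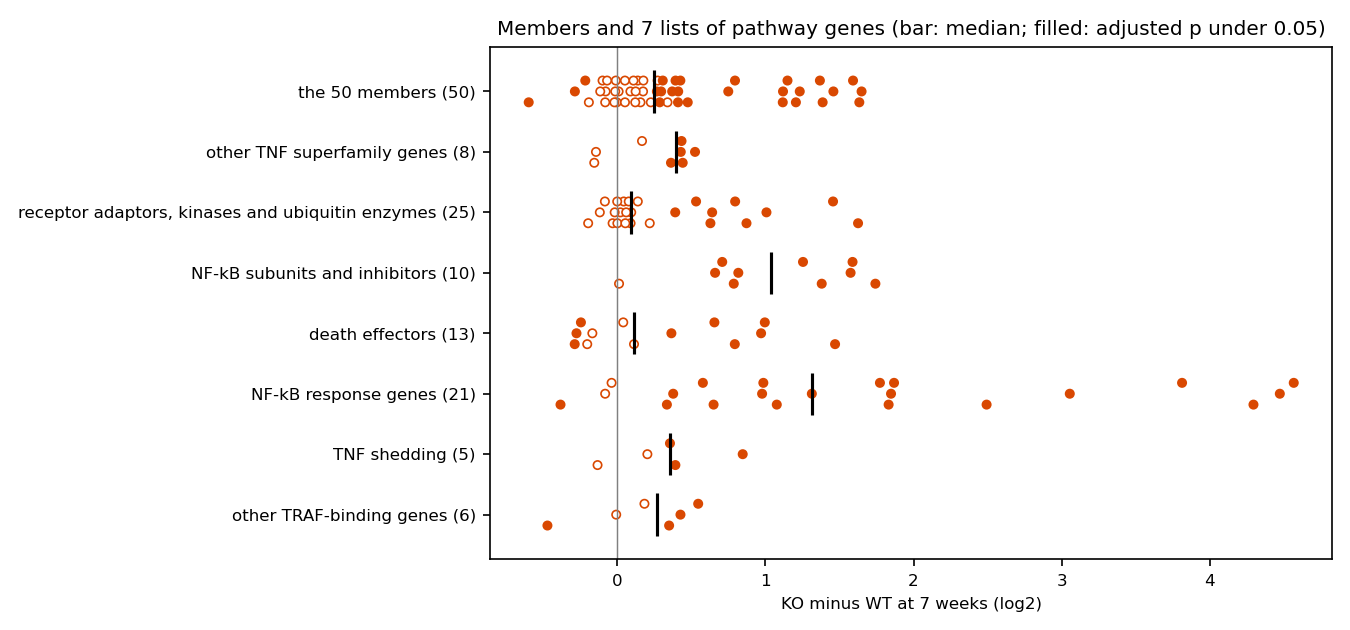
KO minus WT difference at 7 weeks (log2 RMA signal, horizontal axis) of each gene of the 50 and of the 7 pathway lists, 1 point per gene, with a bar at the median of each list. The lists of NF-kB subunits and inhibitors and of NF-kB response genes have medians of 1.04 and 1.31, the 50 genes 0.25.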

How the data were processed

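The deposited values are gene-level signals on the log2 scale, produced by the authors with RMA in Affymetrix Expression Console, per the labels and the submitters' processing notes. The software version, the background settings and whether all 32 arrays were normalised in 1 run are not given in the sources used here. RNA was extracted from kidney kept in RNAlater with a miRNeasy kit. All 32 columns matched a sample and 0 were left over. Labels give no shared litter or scan batch, so batch was not analysed here.

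Of 41345 features, 23521 named 1 symbol, 1814 several and 16010 none. Genes took the feature with the highest mean among those naming them alone, which gave 22180 genes, with no filter on low values. A single limma fit (limma 3.58.1, R 4.3.3) held the 4 group means with 28 residual degrees of freedom and gave 5 comparisons. Benjamini-Hochberg adjustment ran over all 22180 genes, and a gene was called at adjusted p under 0.05. The scripts were tested on simulated data. The 50 members, the pathway lists and the marker lists were chosen with earlier results of these data known. The lists were written from general knowledge. Every member could be named. Values per group were given for Tnf, its 2 receptors and the 16 called members with the largest differences at 7 weeks. Those of Fas, Lta and Tnfrsf21 were given outside this rule. Each pathway list gave up to 4 called genes with the smallest p and up to 2 others with the largest differences.

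Alternatives were fits of only the groups compared, centred arrays, array weights, trended and robust variances, genes at or above the median gene, the lowest-mean feature, an exact rank-sum test, the replicate number as a block, and fits without the least correlated array of each group. Fits without WT mouse 8 of 4 weeks, KO mouse 3 of 7 weeks or WT mouse 6 of 7 weeks were added after the data were seen. Members were matched to RefSeq (50 of 50), and promoters were searched and figures drawn in Python 3.11.15 (matplotlib 3.10.9, scipy 1.17.1, pandas 2.3.3, numpy 2.4.6).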

Additional observations from a re-analysis of the deposited data

Results flagged for a closer look

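Over the 200 combinations of gene and group, 14 held a mouse whose gap to the next was wide for the group's range by Dixon's criterion for 8 values, and chance alone marks about 1 in 20 groups. WT mouse 8 of 4 weeks was the high value in 6 of them: Tnfsf10 at 10.14 (next mouse 8.51), Tnfrsf14 at 7.93 (5.93), Tnfsf13b at 7.67 (6.43), Tnfaip8l3 at 7.04 (5.78), Tnfrsf1b at 6.92 (6.53) and Tnf at 6.39 (5.81). WT mouse 6 of 7 weeks was the low value for Ltb at 5.23 (5.66), Tnfaip8l2 at 5.10 (5.48) and Lta at 4.79 (5.10), and the high one for Tnfaip1 at 9.84 (9.64). Among KO mice Tnfsf8 reached 6.96 in mouse 6 of 7 weeks (5.93), Tnfsf9 reached 5.86 in mouse 4 of 4 weeks (5.39) and Tnfsf11 fell to 3.79 in mouse 1 of 4 weeks (4.29). Tnfaip2 stood at 7.04 in WT mouse 1 of 4 weeks (7.29).

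The KO minus WT difference changed between the ages for 17 genes by the limma test of that change. The 7-week difference was larger by 1.56 for Tnfsf13b, 1.45 for Tnfaip3, 1.41 for Tnf, 1.33 for Tnfrsf1b, 1.29 for Tnfrsf23, 1.22 for Tnfrsf12a, 1.21 for Tnfaip8l2, 1.06 for Tnfsf8, 1.02 for Tnfrsf9, 1.01 for Traf1 and 1.00 for Cd40. Smaller changes were those of Tnfrsf14 (0.89), Tnfrsf1a (0.65), Tnfaip1 (0.39), Traf2 (0.36) and Traf7 (0.29). Tnfaip8 changed in the other direction (-0.71).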

How the results depend on the processing

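The 23 genes higher at 7 weeks became 14 when genes below the median gene, members among them, were left out and fewer genes were tested. Of the members kept, the 7-week result was the same for 22 and stronger for 1. Without single mice the 23 became 20 to 25. The 3 lower genes became 6 with centred arrays and 2 to 3 without single mice. Lower genes with age in WT mice, 2 in all, became 1 with only the groups compared, with centred arrays, with array weights and in the rank-sum test, 0 without the least correlated arrays, and 0 to 2 without single mice. Lower genes with age in KO mice went from 2 to 1 among genes at or above the median gene, and lower changes between ages from 1 to 2 with centred arrays. The 1 pathway gene higher at 4 weeks became 0 with only the groups compared and with the replicate block, and 2 without the least correlated arrays. It also became 0 in the rank-sum test, which called no gene at all at that age. The 5 of 88 pathway genes lower at 7 weeks became 8 with only the groups compared and in the rank-sum test. They became 9 with array weights and 13 with centred arrays. Of all genes, 16.7% were lower at 7 weeks as deposited and 37.5% with centred arrays. Uncalled genes changed sign at 7 weeks: with centred arrays Fasl (-0.0040), Ltbr (-0.025), Tnfaip6 (-0.062), Tnfsf11 (-0.061) and Tnfsf14 (-0.10), with array weights Tnfsf14 (-0.020), and without the least correlated arrays Tnfsf14 (-0.029), Tnfrsf8 (0.016), Tnfsf4 (0.051) and Traf6 (0.0012). Except where the setting leaves out genes or mice, the cause was not tested. Same-numbered mice did not pair (correlations over 0.1 in 2 of 8 pairs at each age, each best with its own number in 1 of 8). With the replicate number as a block 23 genes were higher and 2 lower at 7 weeks, Tnfrsf21 being lost (adjusted p = 0.0529).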
